A study of Rattus norvegicus with 82 samples.

Results

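Colchicine 2 mg/kg was compared with saline 6 h after 1 intravenous dose, in the hearts of 12 of the 82 rats of the series. The members were chosen by their labels: 6 animals labelled colchicine 2 mg/kg at 6 h and 6 labelled saline at 6 h. All animals were male Wistar (Crl:Wi(Han)) rats, and every compound was dissolved in the 0.9% saline that the control animals received. The labels give no age. The study profiled the myocardium after colchicine, vinblastine or vincristine at a lower and a higher dose. Used beside the main comparison are 6 animals given colchicine 0.2 mg/kg and 6 given vinblastine 3 mg/kg, both at 6 h. Values are also given for 6 animals given vincristine 1 mg/kg at 6 h, 6 given colchicine 2 mg/kg at 24 h and 6 given saline at 24 h. Each array holds biotinylated cRNA of 1 heart, and the values are intensities on a linear scale. The number of arrays limits the precision.

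Colchicine is a plant alkaloid that binds the tubulin dimer and keeps it from joining microtubules, the hollow filaments that carry cargo, position organelles and stiffen the heart muscle cell. Vinblastine and vincristine bind tubulin at another site. Cells adjust the amount of tubulin mRNA to the amount of unpolymerised tubulin: when free dimers accumulate, tubulin mRNAs being translated are degraded.

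The array labelled colchicine replicate 4 stood apart. Its root mean square distance to the median saline profile was 0.167 on the log2 scale, against 0.336 to the median of the other 5 colchicine arrays. The other 5 lay 0.143 to 0.246 from the median of their own group and 0.308 to 0.366 from saline. Over all 14 groups, replicate 4 lay nearest vinblastine 0.5 mg/kg at 24 h, at 0.146. Replicate 5 of that vinblastine group lay 0.154 from the median colchicine profile and 0.295 from its own group. The reason for these distances was not tested. All values below keep replicate 4 as labelled. Values without it follow for most genes described animal by animal and for the counts of lists that changed. Leaving it out was decided after seeing the distances. Of the 153 genes named for the comparison with saline, 0 lost or gained a call without replicate 4. In ranges, "the other 5" means colchicine replicates 1, 2, 3, 5 and 6. Log2 changes are differences of log2(intensity + 16), which understates changes of dim transcripts; their errors are standard errors of the limma model, and adjusted p is the Benjamini-Hochberg value over all genes tested.

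**Figure D1:**
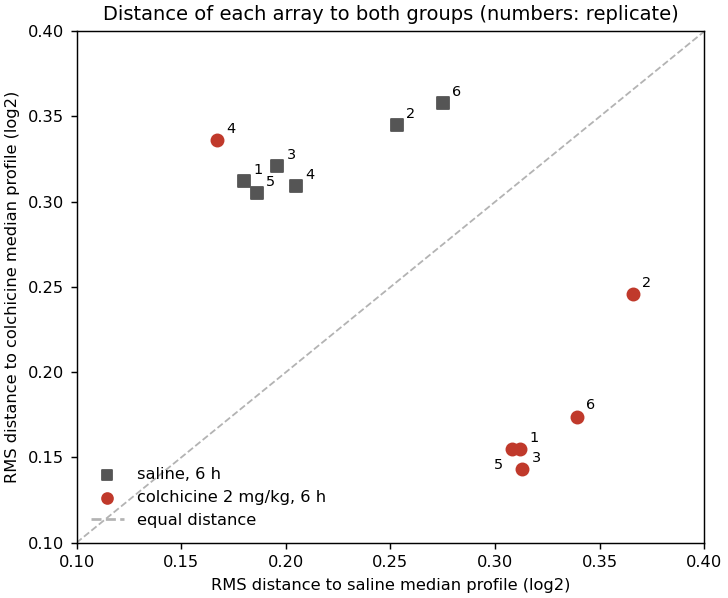
Root mean square distance (log2 units) of each of the 12 arrays to the median saline profile (horizontal axis) and to the median colchicine profile (vertical axis), with replicate numbers beside the points. Colchicine replicate 4 lies above the dashed line of equal distance with the 6 saline arrays, at 0.167 and 0.336, and the other 5 colchicine arrays lie below it.

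Of 11319 genes tested, 1050 passed an adjusted p of 0.05 (9.28%), of which 553 rose (4.89%) and 497 fell (4.39%). These shares are the background for the counts of lists below. At an unadjusted p under 0.05 the number of genes was 2466, where chance would give 566. The split of rises and falls moved with the arrays used and their weights. Without saline replicate 6, 414 rose and 609 fell, and without the 6 arrays whose labels end in _2, 712 rose and 413 fell. With array weights 1046 rose and 1343 fell. At least a 2-fold change was seen in 97 of the 1050 called genes, and in 163 without replicate 4. Without replicate 4 the count was 1620 (14.3%), with 799 rises (7.06%) and 821 falls (7.25%), and 1048 of the 1050 genes were called again in the same direction. Of these 1620 genes, replicate 4 lay inside the range of the saline animals in 1276. All 6 colchicine animals lay above every saline animal in 78 genes (0.689%) and below every one in 69 (0.61%). The other 5 did so in 668 (5.9%) and 535 (4.73%), which is the background for the statements below that the other 5 lay outside the saline range. As a check of the labelled tissue, 15 of 15 cardiomyocyte markers were measured, their summed intensity lay between 235000 and 292000 in saline and at 256000 or above in colchicine, and 0 of them passed the test in either direction.

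Among the 12 largest rises in which all 6 animals lay above the saline mean, the first was Ccn1, a secreted matricellular protein that cells make on stretch (1368290_at). Its intensity ran from 34.8 to 77.1 (median 42.7) in saline and from 558 to 1280 (median 693) in the other 5 colchicine animals, with replicate 4 at 95.3. All 6 colchicine animals lay above the highest saline animal, replicate 4 only just (log2 change 3.12 ± 0.71, adjusted p = 0.00178, and 3.59 (adjusted p = 0.000172) without replicate 4). Rnd1, a protein that loosens actin fibres (1381533_at), ran from 24.1 to 35.2 (median 29.5) in saline and from 206 to 439 (median 270) in the other 5, with replicate 4 at 33.1. Here the other 5 were all above saline and replicate 4 lay inside the saline range (log2 change 2.26 ± 0.44, adjusted p = 0.000388, and 2.69 (adjusted p = 4.81e-06) without replicate 4). The rest of the 12, in falling order, were the stress transcription factor Atf3, the metallothionein Mt2A, the basement membrane protein Tinagl1, Tent5a, the pyruvate dehydrogenase kinase Pdk4, the transcription factor Cebpb, Arid5a, the LIM protein Lmcd1, the growth factor Hbegf and the prothrombinase Fgl2. Their log2 changes ran from 2.19 for Atf3 to 1.53 for Fgl2. The rule left out rises in which replicate 4 did not lie above the saline mean. Among them were Otud1 (3.06), S100a9 (2.88), Tnfrsf12a (2.55), Rhou (2.36), Adamts1 (2.32) and Cdo1 (2.26), all but Rhou described below. The probe sets of Tent5a differed. The one that stood for the gene had means of 136 in saline and 573 in colchicine (log2 change 1.81). Another, brighter in saline, had means of 217 and 221 (0.05), and a dim one had means of 32.8 and 40.6 (0.2). The rise of Tent5a therefore rests on 1 probe set, and the reason for the difference was not tested.

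The 12 largest falls by the same rule opened with the tubulins Tuba4a and Tubb4b, described below. Then came C2cd4b, Tppp3, the kinase-related secreted protein Gask1b, the endothelial transcription factor Sox18, the scavenger receptor Stab1, the membrane glycoprotein Cd200, the G-protein regulator Rgs2, Islr, the clock gene Per3 and Pik3c2b. Log2 changes ran from -1.43 for C2cd4b to -0.94 for Pik3c2b. The rule left out falls in which replicate 4 lay above the saline mean, among them Tuba8 (-1.85) and Aplnr (-1.46), described below. Gask1b (1398387_at) ran from 655 to 958 (median 715) in saline and from 224 to 292 (median 254) in the other 5, with replicate 4 at 663 (log2 change -1.31 ± 0.22, adjusted p = 7.16e-05, and -1.53 (adjusted p = 3.71e-07) without replicate 4). Per3 and Pik3c2b differed from the others in this set: replicate 4 was low with the other 5, and the saline animals spread widely. Per3 ran from 110 to 345 (median 200) in saline, from 77.4 to 116 (median 90.1) in the other 5 and 91.3 in replicate 4, with the groups overlapping (log2 change -0.95 ± 0.22, adjusted p = 0.00244, and -0.95 (adjusted p = 0.00218) without replicate 4). The call of Pik3c2b was lost without saline replicate 2 (adjusted p up to 0.0726). Rgs2 lost its call without colchicine replicate 1, 3, 5 or 6, without saline replicate 1, 2, 3, 4 or 6, with an offset of 64 or with no filter (adjusted p up to 0.116).

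**Figure D2:**
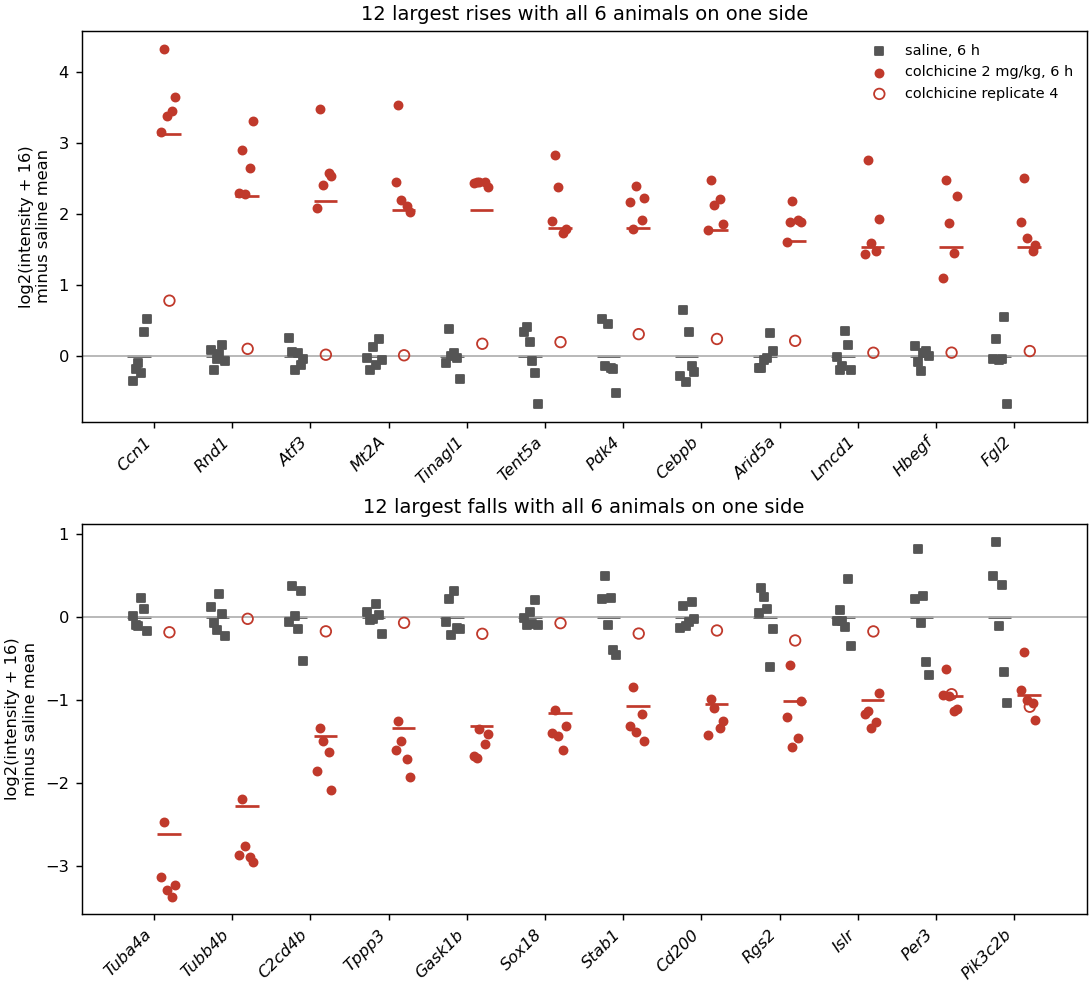
Log2(intensity + 16) of each animal minus the saline mean, for the 12 largest rises (upper panel) and falls (lower panel) in which all 6 colchicine animals lay on one side of the saline mean, with horizontal lines for group means. Open circles mark colchicine replicate 4, which sits near the saline animals except in Per3 and Pik3c2b.

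Transcripts of tubulin, the protein colchicine binds, fell in 5 of the 9 alpha and beta tubulins tested, with a median log2 change of -1.17 over the 9 against 0 over all genes. None of the 9 rose. The background for falls was 4.39%, as above, and without replicate 4 the same count of 5 fell with a median of -1.5. Tubb3 was too dim to be tested, and Tuba1a, Tuba1b, Tuba1c, Tuba3a, Tuba3b and Tubal3 had no probe set with that single symbol, so the main alpha tubulins of most cells are not covered.

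Tuba4a, an alpha tubulin abundant in muscle (1371542_at), ran from 4730 to 6260 (median 5190) in saline and from 502 to 952 (median 555) in the other 5 colchicine animals, with replicate 4 at 4690. The other 5 lay far below every saline animal, and replicate 4 lay just under the lowest of them (log2 change -2.61 ± 0.49, adjusted p = 0.000228, 6.09-fold lower, and -3.09 (adjusted p = 2.04e-06) without replicate 4). Tubb4b, a beta tubulin (1371390_at), ran from 2800 to 3990 (median 3260) in saline and from 411 to 710 (median 438) in the other 5, with replicate 4 at 3240. Replicate 4 was inside the saline range and the other 5 were all below it (log2 change -2.28 ± 0.42, adjusted p = 0.000202, and -2.73 (adjusted p = 9.6e-07) without replicate 4).

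The alpha tubulin Tuba8 (1390766_at) ran from 1760 to 2840 (median 2290) in saline and from 384 to 576 (median 419) in the other 5, with replicate 4 at 3000 (log2 change -1.85 ± 0.41, adjusted p = 0.00154, and -2.31 (adjusted p = 1.39e-05) without replicate 4). The beta tubulins Tubb2a (1373718_at) and Tubb5 (1387892_at) also fell, with log2 changes of -1.27, adjusted p = 0.00976, and -1.17, adjusted p = 0.00185. Without replicate 4 these were -1.64 (adjusted p = 0.000173) and -1.5 (adjusted p = 7.45e-06). In Tuba8, Tubb2a and Tubb5 replicate 4 was higher than every saline animal, at 1300 for Tubb2a and 1670 for Tubb5, while the other 5 lay below every saline animal.

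Tubb6, Tubb2b, Tubb4a and Tubb1 did not pass. Tubb6 ran from 145 to 235 (median 216) in saline and from 125 to 182 (median 141) in the other 5, so the groups overlapped (log2 -0.28, 95% interval -0.64 to 0.08, adjusted p = 0.383). That log2 value includes replicate 4, which lay above the other 5. The means were 206 in saline and 172 over all 6 colchicine animals. The log2 values were -0.08 for Tubb2b (95% interval -0.21 to 0.05), 0.07 for Tubb4a (-0.08 to 0.22) and 0.13 for Tubb1 (-0.15 to 0.4). Tubb1 and Tubb2b were dim, with saline medians of 40.5 and 39.1.

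**Figure D3:**
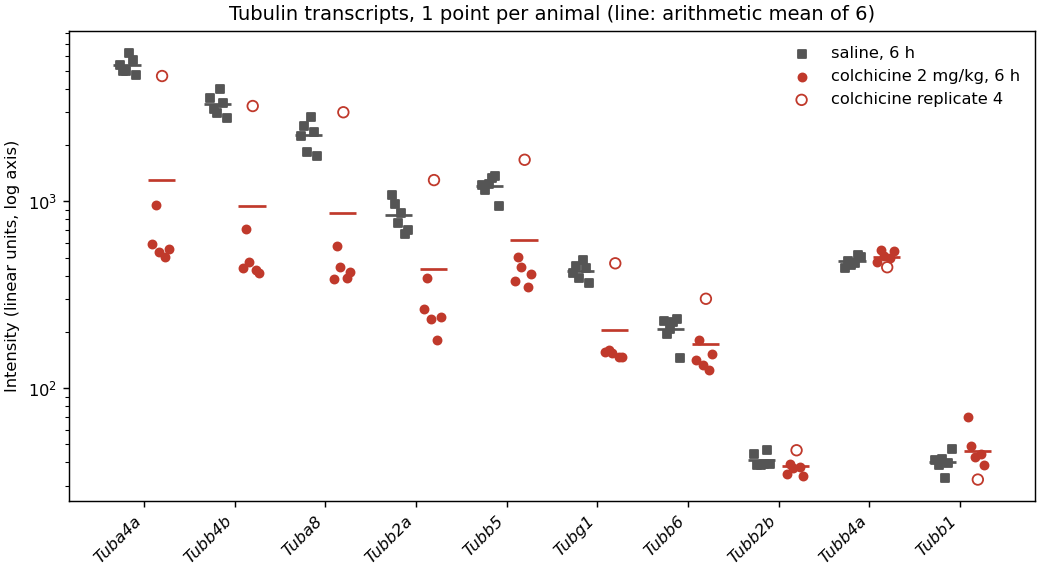
Intensity (linear units on a log axis) of the measured alpha, beta and gamma tubulin transcripts, 1 point per animal with the arithmetic mean of 6 as a line, saline in grey squares and colchicine 2 mg/kg in red. In Tuba4a, Tubb4b, Tuba8, Tubb2a, Tubb5 and Tubg1 the other 5 colchicine animals lie below all saline animals, and colchicine replicate 4 (open circle) lies with or above saline.

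Tubg1, the gamma tubulin that seeds microtubules (1370809_at), ran from 364 to 484 (median 428) in saline and from 147 to 160 (median 155) in the other 5, with replicate 4 at 466. The other 5 formed a narrow band below every saline animal (log2 change -1.12 ± 0.21, adjusted p = 0.000263, and -1.37 (adjusted p = 6.63e-07) without replicate 4). It was the only one of 13 members of the gamma tubulin ring complex and other tubulins to pass. Of 23 genes of tubulin folding and modification 0 passed, with a median of 0.04 (1 fell without replicate 4). Among 33 microtubule-associated proteins and motors 2 rose and 1 fell (3 and 2 without replicate 4). Their median was -0.01, and over all genes 4.89% rose and 4.39% fell. Map1b, which stabilises microtubules (1373363_at), ran from 572 to 761 (median 639) in saline and from 1130 to 1610 (median 1330) in the other 5, with replicate 4 at 493, below all saline animals (log2 change 0.8 ± 0.2, adjusted p = 0.00476, and 1.03 (adjusted p = 4.11e-05) without replicate 4). Clip1, a protein that tracks growing microtubule ends, rose with a log2 change of 0.36, adjusted p = 0.03, a call lost without colchicine replicate 1, 3, 5 or 6, without saline replicate 2, 3 or 6 or with probe sets averaged (adjusted p up to 0.101). Tppp3, a tubulin polymerisation promoting protein (1398365_at), ran from 361 to 466 (median 418) in saline and from 98 to 166 (median 127) in the other 5, with replicate 4 at 397 (log2 change -1.34 ± 0.41, adjusted p = 0.0237, and -1.59 (adjusted p = 0.00459) without replicate 4). Its call was lost without colchicine replicate 1, 3, 5 or 6 (adjusted p up to 0.0718).

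Genes by which heart muscle responds to load and injury rose in 9 of 17 tested, with none falling and a median log2 change of 0.82 (11 rose without replicate 4). The summed intensity of the 17 lay between 41100 and 61300 in saline, at 81600 or above in the other 5 and at 47500 in replicate 4. Nppb, which encodes brain natriuretic peptide (1367616_at), ran from 2200 to 5380 (median 2860) in saline and from 9560 to 15500 (median 11400) in the other 5, with replicate 4 at 2190. The other 5 were above every saline animal and replicate 4 just below the lowest (log2 change 1.49 ± 0.33, adjusted p = 0.00122, and 1.89 (adjusted p = 4.28e-06) without replicate 4). Tnfrsf12a, the receptor for TWEAK (1371785_at), ran from 150 to 204 (median 157) in saline and from 1200 to 2430 (median 1380) in the other 5, with replicate 4 at 124 (log2 change 2.55 ± 0.47, adjusted p = 0.000175, and 3.14 (adjusted p = 3.61e-07) without replicate 4). Xirp1, an actin-binding protein of intercalated discs (1389119_at), ran from 918 to 1320 (median 1150) in saline and from 2410 to 8570 (median 2670) in the other 5, with replicate 4 at 1400. In Xirp1 all 6 colchicine animals lay above saline (log2 change 1.34 ± 0.28, adjusted p = 0.000901, and 1.55 (adjusted p = 5.42e-05) without replicate 4).

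Rcan1, the feedback inhibitor of calcineurin, rose by a log2 change of 1.44, adjusted p = 0.000547, with saline running from 1430 to 2400 (median 1670) and the other 5 from 5350 to 7400 (median 6070); without replicate 4 the change was 1.79 (adjusted p = 1.66e-06). Ankrd1, a stretch-responsive titin-binding protein, ran from 9480 to 12000 (median 11000) in saline and from 17500 to 21500 (median 19200) in the other 5, and stood at 7990 in replicate 4 (log2 change 0.6 ± 0.16, adjusted p = 0.00638, and 0.81 (adjusted p = 2.05e-05) without replicate 4); its call was lost with only the compared groups in the fit (adjusted p up to 0.06). The small heat shock protein Hspb1 rose with a log2 change of 0.82, adjusted p = 0.0184, lost without colchicine replicate 2 or 6 or with only the compared groups in the fit (adjusted p up to 0.117).

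Targets of SRF and YAP and genes of the actin cytoskeleton rose in 9 of 33, with 0 falling and a median of 0.12 (10 and 1 without replicate 4). Ccn1 led this list. Ccn2, a relative of Ccn1 that drives matrix deposition (1367631_at), ran from 417 to 709 (median 611) in saline and from 2860 to 3820 (median 2990) in the other 5, with replicate 4 at 494, inside the saline range (log2 change 2 ± 0.4, adjusted p = 0.000488, and 2.45 (adjusted p = 3.22e-06) without replicate 4). Tpm4, a cytoskeletal tropomyosin, rose by a log2 change of 0.49, adjusted p = 0.0093 and lost the call without colchicine replicate 6 (adjusted p up to 0.0573). Outside the lists, and chosen after their values were seen, Abra (an actin-binding protein of striated muscle, log2 change 2.05, adjusted p = 0.000509), Enah (1.76, adjusted p = 0.000411), Flnc (1.5, adjusted p = 0.000352), Fam107a (1.9, adjusted p = 3.96e-05) and Pla2g4a (1.92, adjusted p = 0.000164) rose too. In each of these 5 genes the other 5 colchicine animals lay above every saline animal and replicate 4 did not.

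Sarcomere genes rose in 5 of 22, with 0 falling, and the median over the list was 0.05. Lmod2, which elongates thin filaments (1377610_at), ran from 2520 to 3340 (median 2740) in saline and from 6150 to 7520 (median 6640) in the other 5, with replicate 4 at 2630 (log2 change 1.01 ± 0.22, adjusted p = 0.00112, and 1.24 (adjusted p = 1.66e-05) without replicate 4). Myot, a Z-disc protein of low intensity here (1392950_at), ran from 39.9 to 66.9 (median 56.7) in saline and from 187 to 281 (median 210) in the other 5, with replicate 4 at 40.9 (log2 change 1.41 ± 0.36, adjusted p = 0.00561, and 1.75 (adjusted p = 0.000188) without replicate 4). Tcap, Myoz2 and Myom2 rose by small amounts, with log2 changes of 0.46, 0.19 and 0.19. All of these lost their call under some alternative: Tcap without colchicine replicate 1, 3 or 6, without saline replicate 1 or under quantile normalization (adjusted p up to 0.0788), Myoz2 without colchicine replicate 1, 2, 3, 5 or 6, without saline replicate 3, 5 or 6, under quantile normalization or with only the compared groups in the fit (adjusted p up to 0.435) and Myom2 without colchicine replicate 1, 2, 3, 5 or 6, without saline replicate 1, 2, 3 or 6, with an offset of 1, with no filter, under quantile normalization, with only the compared groups in the fit or without the 6 arrays whose labels end in _2 (adjusted p up to 0.147).

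Of 30 ion channel, gap junction and calcium handling genes 3 fell and 0 rose, 5 falling without replicate 4. Gja1, the gap junction protein connexin 43 (1372002_at), ran from 7800 to 8810 (median 8360) in saline and from 4060 to 5890 (median 4730) in the other 5. Replicate 4, at 9170, was above every saline animal, and the other 5 were below every one (log2 change -0.62 ± 0.15, adjusted p = 0.00376, and -0.77 (adjusted p = 8.06e-05) without replicate 4). The potassium channel subunits Kcnj5 (-0.5, adjusted p = 0.00315) and Kcnd3 (-0.46, adjusted p = 0.0361) fell as well. Kcnj5 lost its call with only the compared groups in the fit (adjusted p up to 0.0533) and Kcnd3 without colchicine replicate 1, 2, 3, 5 or 6, without saline replicate 1 or 2, with probe sets averaged, with only the compared groups in the fit or without the 6 arrays whose labels end in _2 (adjusted p up to 0.19).

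Immediate early genes, which are transcribed within minutes of a stimulus, rose in 13 of 31 with a median log2 change of 0.55, and 0 fell. Without replicate 4, 16 rose and 1 fell. Atf3 (1369268_at) ran from 18.6 to 31.3 (median 23.7) in saline and from 152 to 428 (median 215) in the other 5, with replicate 4 at 24.3, inside the saline range (log2 change 2.19 ± 0.47, adjusted p = 0.000928, and 2.62 (adjusted p = 2.09e-05) without replicate 4). Gadd45b, a growth arrest gene (1372016_at), ran from 97 to 179 (median 144) in saline and from 429 to 557 (median 476) in the other 5, with replicate 4 at 166 (log2 change 1.47 ± 0.25, adjusted p = 6.82e-05, and 1.71 (adjusted p = 3.61e-07) without replicate 4). Ier5 (1.27, adjusted p = 0.000635), the small Maf factor Maff (1.21, adjusted p = 0.000411) and Gadd45a (1.11, adjusted p = 0.000411) rose as well, each with the other 5 above every saline animal. Junb and Myc rose with log2 changes of 0.9 and 1.11. Junb lost its call without colchicine replicate 2, 3 or 6 or without saline replicate 3 or 5 (adjusted p up to 0.105), and Myc without colchicine replicate 1, 2, 3, 5 or 6, without saline replicate 1, 2, 3, 4, 5 or 6 or with an offset of 64 (adjusted p up to 0.148).

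Heat shock genes rose in 7 of 23 and none fell, although the median over the list was 0.06. The co-chaperones Dnajb5 and Dnajb4 rose most among those named. Dnajb5 (1372144_at) ran from 429 to 834 (median 554) in saline and from 1460 to 2460 (median 1690) in the other 5, with replicate 4 at 610 (log2 change 1.34 ± 0.23, adjusted p = 8.71e-05, and 1.59 (adjusted p = 3.61e-07) without replicate 4). For Dnajb4 the log2 change was 1.12, adjusted p = 0.000399, and for the heat shock factor Hsf2 it was 1.03, adjusted p = 5.67e-05. Hspb8 rose by 0.4, adjusted p = 0.00828, a call lost without colchicine replicate 2 (adjusted p up to 0.0592).

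Among 32 genes of the unfolded protein and amino acid response 7 rose and 0 fell (10 and 2 without replicate 4). Ppp1r15a, which restores translation by directing a phosphatase to eIF2 alpha (1370174_at), ran from 353 to 422 (median 361) in saline and from 972 to 1270 (median 1040) in the other 5. Replicate 4, at 264, was below every saline animal (log2 change 1.18 ± 0.25, adjusted p = 0.000788, and 1.51 (adjusted p = 1.01e-06) without replicate 4). Asparagine synthetase Asns (0.84, adjusted p = 0.000635), the amino acid transporter chain Slc3a2 (0.71, adjusted p = 0.00448) and the mitochondrial folate enzyme Mthfd2 (0.62, adjusted p = 0.000965) rose. Atf4, the transcription factor of this response, rose by 0.56, adjusted p = 0.0117, a call lost without colchicine replicate 2 (adjusted p up to 0.0556).

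Genes induced by glucocorticoids, with the metallothioneins, rose in 9 of 21 with a median of 0.62, and 0 fell. Without replicate 4, 13 rose and 1 fell. Mt2A (1388271_at) ran from 302 to 414 (median 338) in saline and from 1460 to 4180 (median 1650) in the other 5, with replicate 4 at 350, inside the saline range (log2 change 2.06 ± 0.46, adjusted p = 0.00174, and 2.47 (adjusted p = 5.84e-05) without replicate 4). Pdk4, which slows glucose oxidation (1378074_at), ran from 868 to 1810 (median 1130) in saline and from 4370 to 6670 (median 5680) in the other 5, with replicate 4 at 1560 (log2 change 1.8 ± 0.4, adjusted p = 0.0017, and 2.1 (adjusted p = 0.000114) without replicate 4). Cebpd (1.79, adjusted p = 0.0011), the EGF receptor inhibitor Errfi1 (1.54, adjusted p = 0.000635) and the glucocorticoid receptor co-chaperone Fkbp5 (1.34, adjusted p = 0.00561) rose too. The other 5 lay above every saline animal in each of these 5 genes.

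Transcripts of S100a9 and S100a8, the pair of calcium-binding proteins that form calprotectin and that neutrophils carry in quantity, rose. S100a9 (1387125_at) ran from 35.4 to 91.3 (median 47.2) in saline and from 754 to 878 (median 840) in the other 5, with replicate 4 at 35, below every saline animal (log2 change 2.88 ± 0.53, adjusted p = 0.000202, and 3.55 (adjusted p = 3.61e-07) without replicate 4). S100a8 ran from 25.9 to 32.1 (median 28.9) in saline and from 139 to 203 (median 180) in the other 5 (log2 change 1.71 ± 0.32, adjusted p = 0.000228, and 2.07 (adjusted p = 7.27e-07) without replicate 4). Of 16 neutrophil markers 10 were on the array and 4 passed the filter, which a gene bright only in treated animals can pass, so their changes do not stand for the list. Np4, Cxcr2, Csf3r, Mmp8, Mmp9 and Padi4 were too dim to be tested. The fourth tested, Camp, stood at a log2 value of 0.07 (adjusted p = 0.68). The summed intensity of the neutrophil markers lay between 413 and 536 in saline, between 1550 and 1870 in the other 5 and at 445 in replicate 4, and S100a9, S100a8 and Lcn2 make up most of it in the other 5. In whole heart RNA, more cells of a type and more RNA per cell cannot be told apart, and the part of neutrophil RNA in the results below was not tested.

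In the list of NF-kappaB and acute phase genes 5 of 22 rose and 0 fell (7 rose without replicate 4). The inhibitor Nfkbia (1389538_at) ran from 387 to 564 (median 448) in saline and from 893 to 1270 (median 927) in the other 5, with replicate 4 at 378 (log2 change 0.88 ± 0.25, adjusted p = 0.013, and 1.11 (adjusted p = 0.000699) without replicate 4); the call was lost without colchicine replicate 2 (adjusted p up to 0.0538). Nfkb1, a subunit of the factor, rose by 0.35, adjusted p = 0.00255. Lcn2, which binds bacterial siderophores, ran from 156 to 222 (median 172) in saline and from 379 to 693 (median 508) in the other 5 (log2 change 1.23 ± 0.41, adjusted p = 0.0429, and 1.45 (adjusted p = 0.0131) without replicate 4), a call lost without colchicine replicate 1, 2, 3, 5 or 6, without saline replicate 1, 2, 3, 4 or 6, with an offset of 64 or with no filter (adjusted p up to 0.109). Birc3 and Bcl3 rose by 0.36 and 0.27. Birc3 lost its call without colchicine replicate 2 or with only the compared groups in the fit (adjusted p up to 0.0897) and Bcl3 without colchicine replicate 2, 3, 5 or 6, without saline replicate 2, 4 or 5, under 75th percentile normalization, with only the compared groups in the fit or without the 6 arrays whose labels end in _2 (adjusted p up to 0.12).

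In the interleukin 6, Stat3 and Socs list 5 of 19 rose and 0 fell, and 8 rose without replicate 4. Cebpb (1387087_at) ran from 154 to 329 (median 177) in saline and from 735 to 1200 (median 940) in the other 5, with replicate 4 at 243 (log2 change 1.79 ± 0.36, adjusted p = 0.000471, and 2.09 (adjusted p = 1.2e-05) without replicate 4). The interleukin 1 receptor Il1r1 rose by 0.79, adjusted p = 0.000228. Il6, Lif, Osm, Clcf1 and Pim1 were too dim to be tested. Of 39 chemokines, cytokines and their receptors 4 rose and 5 fell (6 and 6 without replicate 4). The decoy receptor Il1r2 (1387180_at) ran from 18.6 to 22.8 (median 19.1) in saline and from 65.4 to 93.3 (median 68.5) in the other 5, with replicate 4 at 23.4, so that all 6 were above saline (log2 change 1.12 ± 0.23, adjusted p = 0.00079, and 1.32 (adjusted p = 2.62e-05) without replicate 4). Ccl2, which draws monocytes, ran from 46.2 to 86.5 (median 57.5) in saline and from 117 to 958 (median 153) in the other 5 (log2 change 1.42 ± 0.35, adjusted p = 0.00462, and 1.66 (adjusted p = 0.000537) without replicate 4), and lost its call without colchicine replicate 2 (adjusted p up to 0.056). Cxcl1, which draws neutrophils, ran from 27.3 to 37.5 (median 31.2) in saline and from 54.9 to 421 (median 82.3) in the other 5 (log2 change 1.14 ± 0.31, adjusted p = 0.00929, and 1.38 (adjusted p = 0.000889) without replicate 4), and lost its call without colchicine replicate 2 or with only the compared groups in the fit (adjusted p up to 0.105). Colchicine replicate 2 was the highest animal in Ccl2 and Cxcl1, at 958 and 421. The chemokine receptor Cxcr4 (-0.78, adjusted p = 0.00231) and the alarmin Il33 (-0.64, adjusted p = 0.00566) fell.

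Macrophage markers fell in 4 of 16 and rose in 1. Stab1 (1374247_at) ran from 135 to 276 (median 201) in saline and from 57.9 to 99.8 (median 68) in the other 5, with replicate 4 at 165 (log2 change -1.06 ± 0.21, adjusted p = 0.000411, and -1.24 (adjusted p = 1.25e-05) without replicate 4). The folate receptor Folr2 (-0.65, adjusted p = 0.000635), the receptor Csf1r (-0.54, adjusted p = 0.00566) and the complement gene C1qa (-0.8, adjusted p = 0.0285) fell; C1qa lost its call without colchicine replicate 1, 3, 5 or 6, without saline replicate 2, 4 or 5 or without the 6 arrays whose labels end in _2 (adjusted p up to 0.0792). Cd14, a co-receptor for endotoxin also found in neutrophils, went the other way (1368490_at): it ran from 83.3 to 136 (median 111) in saline and from 310 to 338 (median 320) in the other 5, with replicate 4 at 94.8 (log2 change 1.16 ± 0.24, adjusted p = 0.000547, and 1.43 (adjusted p = 3.05e-06) without replicate 4). The summed level of the 20 macrophage markers on the array lay between 3520 and 5580 in saline and between 3480 and 4720 in colchicine, so the groups overlapped.

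MHC class II genes fell in 4 of 9, with a median of -0.58 (5 fell without replicate 4). RT1-Da (1370883_at) ran from 651 to 1190 (median 832) in saline and from 393 to 631 (median 462) in the other 5, with replicate 4 at 601; all 6 were below saline (log2 change -0.78 ± 0.24, adjusted p = 0.027, and -0.83 (adjusted p = 0.0171) without replicate 4). RT1-Db1, RT1-Ba and RT1-DMb fell by -0.68, -0.69 and -0.58. None of these 4 calls held in every alternative: RT1-Da was lost without colchicine replicate 3, 5 or 6, without saline replicate 2 or 5 or without the 6 arrays whose labels end in _2 (adjusted p up to 0.0779), RT1-Db1 without colchicine replicate 6 or without saline replicate 1 (adjusted p up to 0.0803), RT1-Ba without colchicine replicate 3 or 6, without saline replicate 2 or 3, with probe sets averaged or without the 6 arrays whose labels end in _2 (adjusted p up to 0.0988) and RT1-DMb without colchicine replicate 1, 2, 3, 5 or 6, without saline replicate 2, 3, 4 or 5, with no filter, with only the compared groups in the fit or without the 6 arrays whose labels end in _2 (adjusted p up to 0.127). Probe sets of such closely related genes may share signal. The fall of RT1-Ba was seen only in the probe set that stood for the gene, with means of 519 in saline and 312 in colchicine. Its other probe sets, with saline means of 320, 276 and 141, had log2 changes of -0.01, -0.08 and -0.12. The reason for this difference was not tested. Of 32 interferon-stimulated genes 1 rose and 1 fell, and 3 rose and 1 fell without replicate 4. In T and NK cells (10 tested), B cells (3), platelets (4) and red cells (6), 0 markers passed.

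Genes of activated endothelium and coagulation rose in 12 of 25 and fell in 1, with a median of 0.48 (13 and 1 without replicate 4). Adamts1, a secreted protease (1368223_at), ran from 179 to 285 (median 209) in saline and from 1380 to 1750 (median 1630) in the other 5, with replicate 4 at 188, inside the saline range (log2 change 2.32 ± 0.46, adjusted p = 0.000404, and 2.82 (adjusted p = 2.53e-06) without replicate 4). The leukocyte adhesion molecule Icam1 (1387202_at) ran from 109 to 157 (median 130) in saline and from 325 to 572 (median 425) in the other 5, with replicate 4 at 135 (log2 change 1.26 ± 0.24, adjusted p = 0.000253, and 1.5 (adjusted p = 1.54e-06) without replicate 4). Hbegf (1.54, adjusted p = 7.16e-05) and Fgl2 (1.53, adjusted p = 0.000903) belong here too. Procr, the protein C receptor, rose by 1.05, adjusted p = 0.0301, a call lost without colchicine replicate 1, 3 or 6 or without saline replicate 1, 5 or 6 (adjusted p up to 0.136). Sele, Selp, Proc and Ptgs2 were too dim to be tested.

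Genes of Notch and angiogenic signalling went the other way, with 10 of 37 falling and 2 rising, and a median of -0.08 (10 and 3 without replicate 4). Aplnr, the apelin receptor of vessel endothelium (1379772_at), ran from 487 to 640 (median 596) in saline and from 124 to 188 (median 165) in the other 5, with replicate 4 at 667, above every saline animal (log2 change -1.46 ± 0.32, adjusted p = 0.00139, and -1.79 (adjusted p = 1.97e-05) without replicate 4). Nrp1, a co-receptor for VEGF (1370570_at), ran from 1400 to 1810 (median 1460) in saline and from 658 to 813 (median 749) in the other 5, with replicate 4 at 1370; all 6 were below saline (log2 change -0.9 ± 0.17, adjusted p = 0.000349, and -1.05 (adjusted p = 7.99e-06) without replicate 4). The Notch target Hey1 fell by -0.93, adjusted p = 0.01. Placental growth factor Pgf (0.89, adjusted p = 0.000411) and Bmp2 (0.69, adjusted p = 0.0207) rose, and the call of Bmp2 was lost without colchicine replicate 2 or 3 or with an offset of 64 (adjusted p up to 0.0938).

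General endothelial markers split, with 3 of 23 rising and 4 falling (4 and 6 without replicate 4). Sox18 (1381971_at) ran from 830 to 1030 (median 860) in saline and from 283 to 401 (median 329) in the other 5, with replicate 4 at 844 (log2 change -1.15 ± 0.2, adjusted p = 0.000114, and -1.37 (adjusted p = 5.21e-07) without replicate 4). Endomucin, Emcn, fell by -0.65, adjusted p = 0.000171. The phosphatase Ptprb (0.62, adjusted p = 0.000584) and the junction protein Esam (0.53, adjusted p = 0.00448) rose. The summed intensity of the 23 lay between 17100 and 22000 in saline and between 19000 and 22400 in colchicine, so that the groups overlapped. Of 14 fibroblast markers Tcf21 rose (0.79, adjusted p = 0.00217) and Islr fell (-0.99, adjusted p = 0.000653), and of 14 smooth muscle and pericyte markers 0 passed (1 fell without replicate 4).

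Matrix genes rose in 5 of 48 and fell in 1, against 8 and 1 without replicate 4. Over all genes 4.89% rose and 4.39% fell (7.06% and 7.25% without replicate 4), and the median over this list was -0.01. Ccn1 and Ccn2 are among these rises and were also counted with the SRF and YAP targets. The lists share members, so their counts are not separate evidence. Tinagl1 (1367650_at) ran from 203 to 341 (median 257) in saline and from 1420 to 1490 (median 1480) in the other 5, with replicate 4 at 294 (log2 change 2.06 ± 0.32, adjusted p = 4.53e-05, and 2.44 (adjusted p = 4.51e-08) without replicate 4). The other 5 were close to each other and above every saline animal. Timp3, an inhibitor of matrix proteases, rose by 0.7, adjusted p = 0.00204.

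Protein breakdown genes of muscle rose in 6 of 21 with 0 falling (7 rose without replicate 4). This list, which holds Otud1, was chosen with earlier results of these data known, so its count is a description and not a test. Otud1, a deubiquitinase (1384254_at), ran from 312 to 644 (median 483) in saline and from 5720 to 7230 (median 6480) in the other 5, with replicate 4 at 325, inside the saline range (log2 change 3.06 ± 0.57, adjusted p = 0.000219, and 3.77 (adjusted p = 3.61e-07) without replicate 4). The autophagy protein Gabarapl1 (1.03, adjusted p = 8.56e-05), the mitophagy receptor Bnip3 (0.75, adjusted p = 0.00295), the transcription factor Foxo3 (0.68, adjusted p = 0.000315) and the protease Ctsl (0.57, adjusted p = 0.0147) rose. Of 39 proteasome subunits 1 rose, Psmd8 (0.71, adjusted p = 0.000824), and 5 rose without replicate 4.

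Among regulators of p53 and apoptosis 6 of 32 rose and 3 fell (7 and 3 without replicate 4). Both survival proteins Bcl2l1 (1.16, adjusted p = 0.000228) and Mcl1 (0.79, adjusted p = 0.00541) rose, and so did the stress sensor Sesn1 (0.95, adjusted p = 0.00472). The death ligand Tnfsf10 ran from 79.3 to 150 (median 105) in saline and from 36.4 to 66.8 (median 40.5) in the other 5, with replicate 4 at 153 (log2 change -0.76 ± 0.23, adjusted p = 0.0202, and -1.01 (adjusted p = 0.000509) without replicate 4), and lost its call without colchicine replicate 1, 3, 5 or 6, without saline replicate 4 or with only the compared groups in the fit (adjusted p up to 0.0741).

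In metabolism, the cysteine dioxygenase Cdo1 (1367755_at) ran from 82 to 166 (median 103) in saline and from 551 to 1130 (median 935) in the other 5, with replicate 4 at 101 (log2 change 2.26 ± 0.41, adjusted p = 0.000179, and 2.74 (adjusted p = 6.24e-07) without replicate 4). Heme oxygenase Hmox1 ran from 154 to 214 (median 182) in saline and from 400 to 640 (median 457) in the other 5, with replicate 4 at 217, so that all 6 lay above saline (log2 change 1.2 ± 0.29, adjusted p = 0.00314, and 1.39 (adjusted p = 0.000355) without replicate 4). These were 2 of the 3 genes that rose among 37 of iron, glutathione and oxidative stress (3 rose and 1 fell without replicate 4). The median over the 37 was 0.02, and 4.89% of all genes rose. The hypoxia-responsive Ndrg1 (1371360_at) ran from 312 to 421 (median 345) in saline and from 736 to 877 (median 792) in the other 5, with replicate 4 at 427; all 6 lay above saline (log2 change 1 ± 0.13, adjusted p = 1.12e-06, and 1.14 (adjusted p = 1.28e-09) without replicate 4). Of 57 oxidative phosphorylation genes 0 passed (median 0.01), with and without replicate 4. Of 23 mitosis genes and 32 replication genes 0 passed too, but 13 mitosis genes were too dim to be tested.

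**Figure D4:**
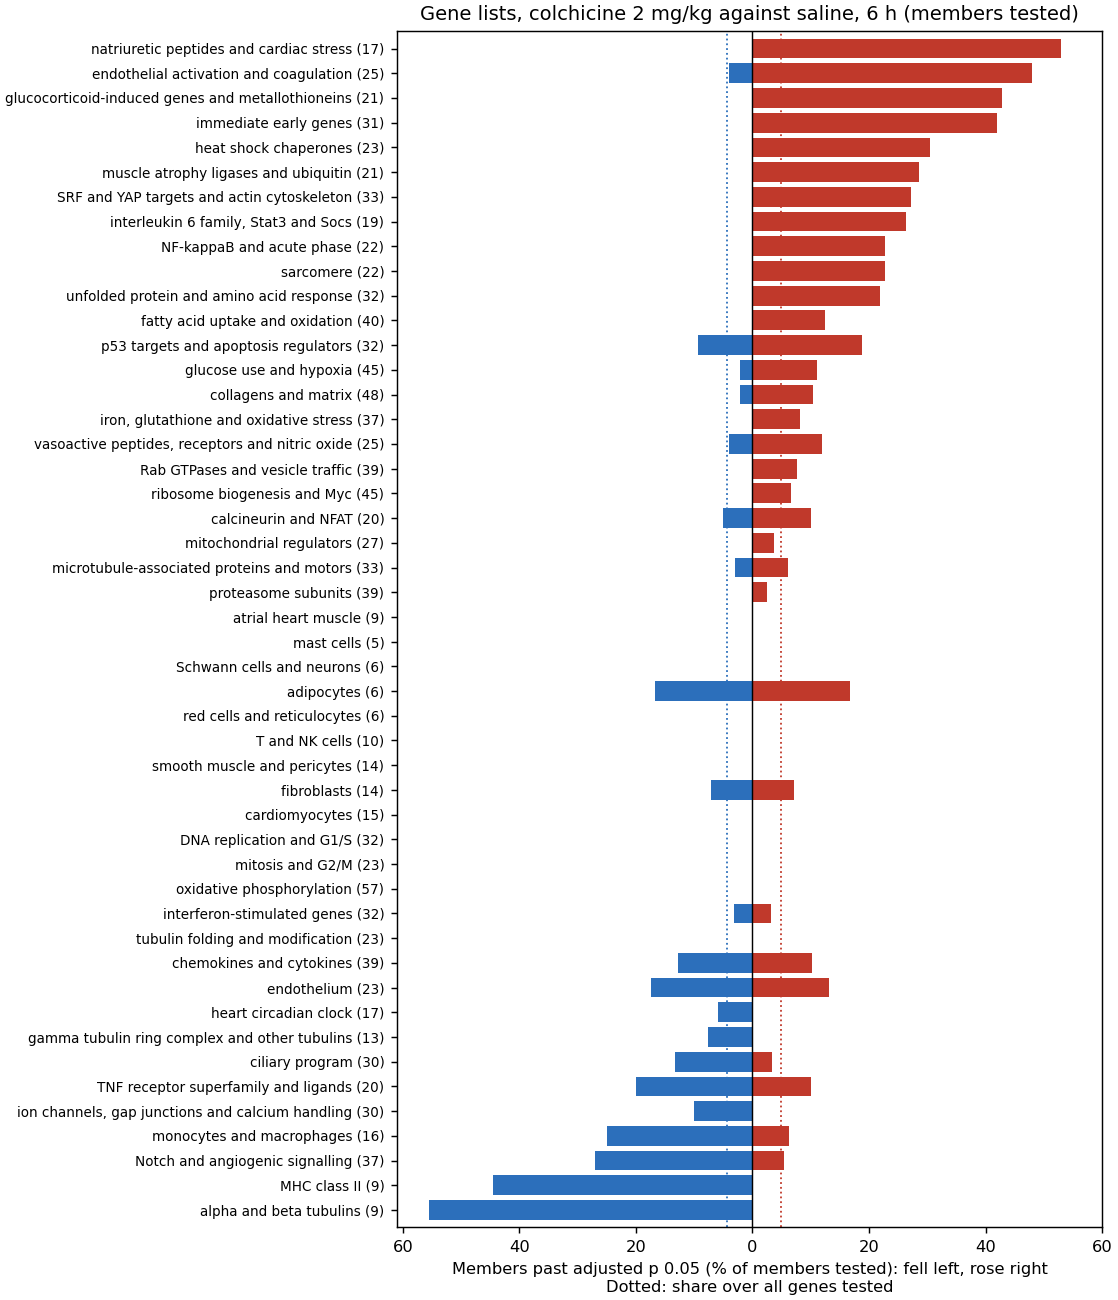
Share of the tested members of each list that rose (bars to the right) or fell (bars to the left) at an adjusted p of 0.05, in percent, with the number of members tested in parentheses. Dotted lines give the shares over all genes, 4.89% for rises and 4.39% for falls. Lists with fewer than 5 tested members are left out.

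Several of these genes are textbook targets of transcription factors whose motifs can be read in the promoter, and the stretches that hold the motifs are printed here to show what lies upstream of them. They are RefSeq sequences of the GRCr8 assembly, written 5′ to 3′ on the strand of the gene, with motif matches in capitals. Matches to the TEAD motif GGAATG, which YAP partners bind, are shown upstream of Ccn2, Ccn1 and Nppb.
Ccn2 (chr1:22624689-22624792, minus strand): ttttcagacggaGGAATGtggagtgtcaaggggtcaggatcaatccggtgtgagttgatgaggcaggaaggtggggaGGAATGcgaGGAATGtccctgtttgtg
Ccn1 (chr2:237225785-237225814, minus strand): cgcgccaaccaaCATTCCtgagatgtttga
Nppb (chr5:163699865-163699894, plus strand): gctcagcaggcaGGAATGtgtctgataaat
The CRE motif TGACGTCA, bound by CREB and ATF proteins, is shown for the 4 named genes that rose and hold it.
Lmcd1 (chr4:146948789-146948820, plus strand): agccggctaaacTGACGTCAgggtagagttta
Maff (chr7:112792724-112792755, plus strand): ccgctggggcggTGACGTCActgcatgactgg
Ppp1r15a (chr1:105139643-105139674, minus strand): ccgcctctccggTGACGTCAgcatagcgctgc
Rcan1 (chr11:45118424-45118455, minus strand): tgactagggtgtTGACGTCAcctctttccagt
The NF-kappaB motif is shown for a chemokine and for the inhibitor of the factor, and the metal response motif, TGCACNC or TGCGCNC, for Mt2A, in which it occurs 4 times.
Cxcl1 (chr14:17479383-17479417, minus strand): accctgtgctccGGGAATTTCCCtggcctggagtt
Nfkbia (chr6:78597082-78597115, minus strand): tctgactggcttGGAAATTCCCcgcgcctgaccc
Mt2A (chr19:10838745-10838940, minus strand): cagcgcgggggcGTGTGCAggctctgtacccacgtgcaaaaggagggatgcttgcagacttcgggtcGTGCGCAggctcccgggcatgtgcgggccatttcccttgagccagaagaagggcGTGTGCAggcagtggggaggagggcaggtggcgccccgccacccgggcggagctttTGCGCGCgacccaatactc

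The search covered both strands of the 250 bases before the start. A promoter was found for 76 of the 105 named genes that rose and for 33 of the 44 that fell. In a first search of 8 motif definitions, TEAD was present in 14 of the 76 (18.4%), in 4 of the 33 (12.1%) and in 11.8% of all 27456 promoters. CRE was present in 4 of the 76 (5.26%), 2 of the 33 (6.06%) and 1.7% of all. The AP-1 motif TGANTCA stood at 5.26%, 6.06% and 6.36%, the heat shock motif GAANNTTC at 7.89%, 9.09% and 7.02% and the amino acid response motif TGATGNAA at 1.32%, 0.0% and 3.27%. The SRF CArG box was in 0 of the 76, 0 of the 33 and 1.5% of all, which says only that these letters are not in these windows. The loose forms searched for NF-kappaB, GGG and CC with 5 free bases between (65.8%, 42.4% and 43.5%), and TGCNCNC for metal response (47.4%, 66.7% and 43.9%) matched over 40% of all promoters. After these shares were seen, both were narrowed, and the narrowed forms are those printed above. NF-kappaB was then in 9 of the 76 (11.8%), 2 of the 33 (6.06%) and 3.53% of all, and metal response in 25 of the 76 (32.9%), 12 of the 33 (36.4%) and 21.2% of all. The stretches printed were picked from the matches, and these shares carry no test. Part of the named genes came from lists of known targets, such as those of NF-kappaB, SRF and YAP, so a raised share may reflect that choice. A match is a description and not a binding site.

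Colchicine 2 mg/kg differed from 0.2 mg/kg at 6 h in 1042 genes (9.21%), 503 higher (4.44%) and 539 lower (4.76%) at the higher dose. Without colchicine 2 mg/kg replicate 4 the count was 1600 (14.1%), 721 higher (6.37%) and 879 lower (7.77%), and without its replicate 2 it was 684. The split turned with the scaling: 664 were higher and 506 lower after 75th percentile normalization, and 660 and 584 after quantile normalization. At 0.2 mg/kg, replicates 1 and 6 lay nearer the saline animals of 24 h than their own group. Against the saline animals that both doses share, 0.2 mg/kg had 31 genes past the threshold (0.274%). The 5 largest differences upward were S100a9 (log2 difference 2.86 ± 0.53, adjusted p = 0.000181), Otud1 (2.75), Adamts1 (2.43), Ccn1 (2.43) and Tnfrsf12a (2.43). At 0.2 mg/kg the log2 values against saline of these genes were 0.02, 0.31, -0.11, 0.69 and 0.13. The dose difference of Ccn1 (adjusted p = 0.0167) was lost without colchicine 2 mg/kg replicate 2.

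Of the 9 alpha and beta tubulins 0 differed between the doses, and 0 passed at 0.2 mg/kg against saline. Without colchicine 2 mg/kg replicate 4, Tubb4b was lower at the higher dose (-1.26, adjusted p = 0.0247), the median difference over the 9 was -0.66 in place of -0.33, and 1 passed at 0.2 mg/kg. Tuba4a stood at -1.83 at 0.2 mg/kg and -2.61 at 2 mg/kg, a difference of -0.78 with a 95% interval of -1.75 to 0.19. For Tubb4b the values were -1.47 and -2.28, a difference of -0.81 (-1.64 to 0.03). These intervals are wide, and a difference that missed the threshold does not show that the doses act alike.

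The largest differences downward were in Tppp3 (log2 -3.08 ± 0.41, adjusted p = 2.78e-07), Rfx2 (-2.41, adjusted p = 6.46e-08), Zfp423 (-1.81), Dusp14 (-1.73) and RT1-Bb (-1.69). In Rfx2, a transcription factor of ciliated cells, the lower dose was above saline (2.05, adjusted p = 1.5e-05) and the higher dose was not different by the test (-0.36, adjusted p = 0.544). Tppp3 stood at 1.74 (adjusted p = 0.038) at the lower dose and fell at the higher, as given above. Zfp423 stood at 1.06 at the lower dose and -0.75 at the higher, the latter call being lost without colchicine replicate 1, 2, 3, 5 or 6, without saline replicate 2, 3, 4 or 5, with probe sets averaged or without the 6 arrays whose labels end in _2 (adjusted p up to 0.112). This fall was seen only in the probe set that stood for the gene. Its other probe sets, with saline means of 178, 87 and 78.6, had log2 changes of -0.08, -0.05 and -0.06. The probe sets of RT1-Bb also differed at 2 mg/kg against saline, with -1.06 for the one that stood for the gene and 0.02 for a dimmer one. The reason for these differences was not tested. In the list of ciliary genes 9 of 30 were lower and 1 higher at the higher dose. That list holds Tppp3 and Zfp423 and was chosen with earlier results of these data known, so its count is not a test.

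Vinblastine 3 mg/kg at 6 h, set beside colchicine 2 mg/kg, differed from saline in 2637 genes (23.3%). The doses in mg/kg differ, and both contrasts use the same saline animals. In the direct comparison of the compounds 0 genes passed in limma, with and without colchicine replicate 4, against 1192 at an unadjusted p under 0.05 (241 higher and 951 lower with colchicine), where chance would give 566. Vinblastine 3 mg/kg replicate 1 stood apart, at 0.565 from the median of its own group against 0.163 to 0.224 for the others. Without it 0 genes passed and 425 reached the unadjusted p. With array weights 28 passed, and 5 passed without the 10 arrays that lay over 1.3 times nearer another group than their own. Tuba4a stood at -2.61 with colchicine and -2.98 with vinblastine, a difference of 0.38 (95% interval -0.6 to 1.35). Ccn1 stood at 3.12 and 2.07, a difference of 1.05 (-0.35 to 2.46). S100a9 stood at 2.88 and 3.68, a difference of -0.8 (-1.86 to 0.26). With vincristine 1 mg/kg at 6 h, 373 genes (3.3%) passed against saline, and Tuba4a stood at -2.09.

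At 24 h the change against the saline animals of that time differed from the change at 6 h in 2136 genes (18.9%), 712 higher (6.29%) and 1424 lower (12.6%). With quantile normalization the split was 1131 higher and 1261 lower. Without colchicine 2 mg/kg 6 h replicate 4 the count was 1866 (16.5%), 629 higher (5.56%) and 1237 lower (10.9%). Colchicine 2 mg/kg 24 h replicate 1 stood apart, at 0.505 from the median of its own group and 0.179 from that of saline at 6 h, and without it the count was 3042. At 24 h itself 5044 genes passed (44.6%). Hamp, the iron hormone hepcidin, stood at 1.12 at 6 h and 4.28 at 24 h (difference 3.16 ± 0.76, adjusted p = 0.0017). Angptl4, an inhibitor of lipoprotein lipase, stood at 0.6 and 3.68 (difference 3.08, adjusted p = 0.000272). Its 6 h value rests on colchicine replicate 2, at 290, since the other colchicine animals ran from 46 to 63.7 and saline from 29.1 to 54.3. Without replicate 2 the difference was 3.44 (adjusted p = 5.49e-05). The transferrin receptor Tfrc stood at -0.13 and -2.98 (difference -2.85, adjusted p = 3.06e-05). None of these 3 genes had passed at 6 h.

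The muscle ankyrin repeat genes Ankrd23 and Ankrd2 and the transglutaminase Tgm1 were also higher at 24 h, with differences of 2.86, 2.59 and 2.85. Fbxl22, Perm1 (a regulator of muscle mitochondria), Hs3st5 and Rab3a were lower, with differences of -2.25, -2.08, -2.06 and -1.99. Hs3st5 had risen at 6 h (1.09, adjusted p = 0.0114) and stood at -0.97 at 24 h. Oxidative phosphorylation genes, of which 0 of 57 passed at 6 h, had 28 lower in the difference and 48 lower at 24 h against its saline. Of the 9 alpha and beta tubulins 1 differed between the times, Tubb1 (-0.6, adjusted p = 0.0212), while Tuba4a stood at -2.61 and -3.09 (difference -0.49, 95% interval -1.86 to 0.89).

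**Figure D5:**
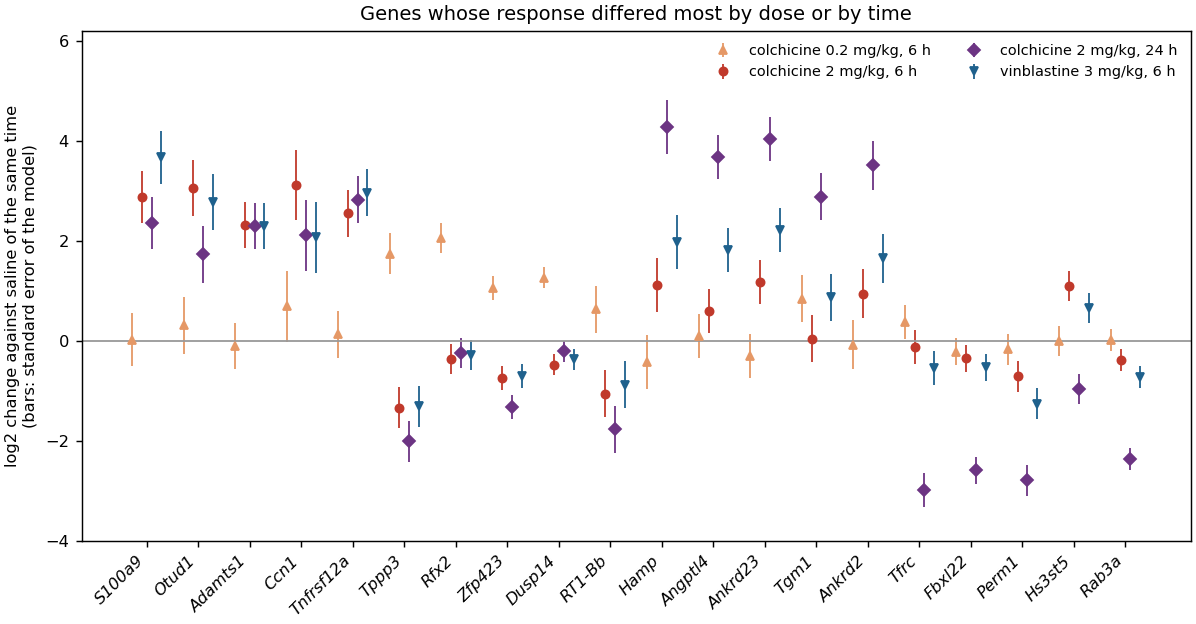
Log2 change against saline of the same time, with the standard error of the model as bars, for the genes that differed most between colchicine doses (left 10) or between 6 and 24 h (right 10). Points are colchicine 0.2 mg/kg at 6 h, 2 mg/kg at 6 h, 2 mg/kg at 24 h and vinblastine 3 mg/kg at 6 h, which share saline animals within a time. Rfx2 is high at 0.2 mg/kg, at 2.05, and Tfrc is low at 24 h, at -2.98.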

How the data were processed

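The values deposited by the authors are linear intensity values per probe set. Array medians are nearly equal, so some normalization preceded deposit; how it was done is not given in the sources used here. Per the labels' protocols, cRNA was made with an Affymetrix 3' IVT kit. Values ran from 9.76 to 39497, with array medians of 57.6 to 63.3, and the number of arrays, not a read depth, limits the precision. Of 31099 probe sets, 57 were controls and 20826 carried 1 symbol in the platform annotation, covering 14217 genes. The probe set with the highest mean stood for a gene, and 11319 genes above the 40th percentile on at least 5 arrays were tested.

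Group means of 14 groups on all 82 arrays were fitted to log2(intensity + 16) with limma 3.58.1 in R 4.3.3, reading with data.table (version 1.17.8), and p-values were adjusted by Benjamini-Hochberg (threshold 0.05). A gene bright only in treated animals could pass the filter. On simulated data 72% of changes of 0.5 on the log2 scale and 100% of changes of 1 were recovered. P-values measure the spread between these animals.

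The members and the gene lists were chosen with earlier results of these data known. Named were the 12 largest rises and 12 largest falls with all 6 treated animals on one side of the saline mean, up to 5 called members per list with the largest change, every measured alpha, beta and gamma tubulin, and the 5 largest differences each way for the other comparisons. Genes with symbols beginning LOC, RGD or AABR were counted only, and some genes the rule takes are summarised in counts. The replicate numbers did not pair the animals. Alternatives were offsets of 1 and 64, no filter, a 60th percentile filter, quantile and 75th percentile normalization, averaged probe sets, only the compared groups, array weights, a replicate block, leaving out the 6 arrays labelled _2, each replicate in turn and, added later, the 10 arrays lying over 1.3 times nearer another group. Motif definitions were changed once after their shares had been seen, and both versions are reported.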

Additional observations from a re-analysis of the deposited data

Results flagged for a closer look

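Colchicine replicate 4 lay far from the other 5 arrays of its group, by Dixon's criterion, in 63 of the 153 genes named for the main comparison. Colchicine replicate 2 did so in 2 genes, and saline replicates 1 and 6 in 1 gene each. Chance gives such a distance in about 1 of 20 groups.

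The change at 24 h differed from that at 6 h in 2136 genes by the test of the difference. The largest were Hamp (log2 difference 3.16), Angptl4 (3.08), Ankrd23 (2.86), Tgm1 (2.85) and Ankrd2 (2.59) upward, and Tfrc (-2.85), Fbxl22 (-2.25), Perm1 (-2.08), Hs3st5 (-2.06) and Rab3a (-1.99) downward.

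Among 4961 probe sets with no gene symbol or with several, fitted separately, 253 passed an adjusted p of 0.05 (5.1%), 113 of them higher and 140 lower with colchicine. Without replicate 4 there were 357.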

How the results depend on the processing

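Over the alternatives planned for the main comparison, other than array weights and leaving out a replicate, the count of genes past the threshold ran from 941 to 1323 against 1050. Array weights gave 2389 for the main comparison, 2621 for the dose difference, 28 for the compound difference and 3546 for the time difference. Without the 10 arrays that lay over 1.3 times nearer another group than their own, 2185, 1715 and 5 genes passed for the main, dose and compound comparisons. Leaving out 1 replicate gave 737 (without colchicine 2 mg/kg 6 h replicate 6) to 1620 (without replicate 4) for the main comparison. It gave 684 (without colchicine 2 mg/kg 6 h replicate 2) to 1600 (without replicate 4) for dose, 0 to 0 for compounds, and 1602 (without colchicine 2 mg/kg 24 h replicate 3) to 3042 (without replicate 1 of that group) for time. With the replicate number as a block the counts were 1102, 1075, 0 and 2192; correlations of same-numbered animals ran from -0.04 to 0.15, so the numbers do not pair them. No named gene reversed. In the main comparison 94 of the 149 named genes that were called kept the call in every alternative, in the dose difference 9 of 10 and in the time difference 10 of 10. The cause of these shifts was not tested. Dim probe sets limit what can be said of low transcripts.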

Other observations

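In some genes replicate 4 lay outside the saline range together with the other 5. Of the 1620 genes called without replicate 4, it lay on the same side of the saline mean as the mean of the other 5 in 875. No share over all genes stands beside this count, so it does not show whether replicate 4 responded. Ager and Polr3b were picked with their values known, so they cannot show whether replicate 4 responded. Chosen after the values were seen, Ager, a receptor abundant in lung, ran from 192 to 233 (median 205) in saline and from 141 to 185 (median 161) in the other 5 colchicine animals, with replicate 4 at 174 (log2 change -0.33 ± 0.07, adjusted p = 0.00174). Surfactant genes of lung epithelium (Sftpa1, Sftpb, Sftpc and Sftpd) were too dim to be tested. Polr3b, a subunit of RNA polymerase III, ran from 112 to 133 (median 121) in saline, from 136 to 161 (median 145) in the other 5 and 144 in replicate 4 (log2 change 0.22 ± 0.06, adjusted p = 0.0121), a call lost without colchicine replicate 6 (adjusted p up to 0.0526). In both genes all 6 colchicine animals lay outside the saline range, which was true of 102 of the 1050 genes called.

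Kcnj5, a subunit of the acetylcholine-gated potassium channel, had opposite signs at the 2 times, with -0.5 at 6 h and 0.54 at 24 h against saline (difference 1.04, adjusted p = 2.01e-05). Ift43, a protein of ciliary transport, stood at 0.44 at 6 h and -0.81 at 24 h (difference -1.24, adjusted p = 3.06e-05). Both were chosen after their values were seen.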
